A study of Mus musculus with 4 samples.

Results

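Gm36028, Rbfox3, Syt16, Cntn1 and Gm38973 are 5 genes of the nuclear genome with almost no normalized counts in tissue of mouse skeletal muscle and high normalized counts in mitochondria isolated from it. They were selected on the same values described here, as the genes near 0 in both libraries of tissue and high in both libraries of isolated mitochondria, and make up 5 of the 16472 genes measured. The size of their difference between fractions is therefore a description, without a test. The study is about a long non-coding RNA (lncRNA) of mitochondria, mitolnc, and these libraries asked whether it lies in mitochondria of muscle as well. Skeletal muscle of mice with the genotype WT (wild type) was fractionated, and total RNA was sequenced in 4 libraries, 2 of isolated mitochondria and 2 of the other fraction. No treatment of the animals was named for these samples, and neither their age nor their number was given in the sources used here. The study's methods, written for heart, treat isolated mitochondria with digitonin and RNase A before RNA isolation. The second group is labelled tissue minus mitochondria, but its titles and a figure legend of the study speak of total muscle, so whether the comparison is with whole or with depleted muscle is not settled. It is called remaining tissue here. Nothing in the labels states that the libraries of a group came from separate animals, so the spread between them may be technical.

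Of these genes 3 belong to families known for roles in the nervous system. Rbfox3 encodes NeuN, an RNA-binding splicing regulator whose protein serves as a standard marker of mature neurons. Cntn1 encodes contactin 1, a cell adhesion protein of the immunoglobulin superfamily that is anchored to the membrane of axons and takes part in the contacts between axons and myelin. Syt16 belongs to the synaptotagmins, a family best known for the calcium sensors of vesicle release, although this member is an atypical one. Gm36028 is a predicted protein-coding gene and Gm38973 a long intergenic non-coding RNA, and no function is stated for either. RNA of a mitochondrial preparation is mostly made from the mitochondrial genome, beside transcripts of the nuclear genome that sediment with it.

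The deposited values are normalized counts, which are gene counts divided by a size factor of the library. In isolated mitochondria 1 read was worth 9.05 normalized counts in replicate 1 and 5.06 in replicate 2, and whole reads were recovered from these steps. In remaining tissue 1 normalized count stood for about 7.05 reads, estimated as one common value for both libraries, and a gene listed at 0 may hold up to 3 reads. Isolated mitochondria replicates 1 and 2 held 42750386 and 35305080 assigned reads, and for remaining tissue 15704057 and 15301887 were estimated. Only 0.236% and 0.513% of the reads of isolated mitochondria lay on nuclear genes outside copies of mitochondrial genes, that is 100924 and 181152 reads, against 76.3% and 78.2% in remaining tissue. These nuclear reads are the base of each share below unless another is named.

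The sequences of the genes were examined first, to see what they share with mitochondrial RNA and with other genes. No transcript of the 5 genes matched any of the 15441 nt of mitochondrial transcripts at an E-value up to 0.001. The longest run of identical bases shared with a mitochondrial transcript on either strand was 12 nt in Gm36028, 13 nt in Rbfox3, 13 nt in Syt16, 16 nt in Cntn1 and 11 nt in Gm38973. Reads were sequenced at 75 bases, and by the study's methods those of at least 30 bases were kept after trimming. Their alignment allowed some mismatches. Each run is shown within a window of 30 bases, 5′ to 3′ on the strand of the gene, with the shared bases in capitals, to show how short the shared stretches are.
Gm36028 with mt-Cytb: tgtgtctgaAGACAACTACATtgtactcat
Rbfox3 with mt-Co2: ctccacccCCCATTCCAACTTatggagcgg
Syt16 with mt-Co1: tggggaggAGGAGCAGGAACActgggagga
Cntn1 with mt-Nd3: tttttttAAATTGCTCTTCTACTcttctct
Gm38973 with mt-Nd4, opposite strand: aatAAGGATGAAGGactctccaaagaaaag

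The window in Cntn1 lies at chr15:92246373-92246402 (GRCm38, + strand), in an exon of a retained-intron transcript. For comparison, 2 nuclear copies of mitochondrial genes with the same pattern of values, the processed pseudogenes Gm11408 and Gm50174, shared runs of 39 nt with mt-Nd6 and 55 nt with mt-Atp6. In the rest of the 10 other genes most like the 5, described below, the longest runs were 12 to 15 nt. Neither the control region of the mitochondrial genome, which lies outside its annotated transcripts, nor the introns of the 5 genes were searched.

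Sequence shared with other nuclear genes was counted at 75 bases, at 30 bases and at a looser identity. Of all distinct windows of 75 bases 0 of 1290 in Gm36028, 0 of 6022 in Rbfox3 and 0 of 9355 in Cntn1 occurred without mismatch in a transcript of another gene. In Syt16, 44 of 9287 windows did, all on the opposite strand and in 1 gene. That gene is Gm29587, an antisense gene that overlaps exons of Syt16 at the same locus. In Gm38973, 62 of 804 windows (7.71%) did, in transcripts of 38 genes. At 30 bases, 24 of 1335 windows of Gm36028 occurred in 913 other genes, and 145 of 849 (17.1%) of Gm38973 in 1795. For Rbfox3, Cntn1 and Syt16 these were 3 of 5887 in 82 genes, 241 of 9400 in 1494 and 132 of 9197 in 2. At 90% identity over at least 30 nt, stretches of Gm38973 were found in 2159 other genes and covered 22.6% of its transcript, and each of these genes matched a single stretch near its 3′ end. By the same measure Gm36028 matched 115 other genes over 13.3% of its transcripts, Rbfox3 298 genes over 1.73%, Cntn1 612 genes over 4.07% and Syt16 6 genes over 4.00%.

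The authors excluded reads that align to several places from their counts. The table gives counts per gene without read positions, and the share of each gene's reads that came from such shared stretches was not tested.

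In both libraries of isolated mitochondria each of the 5 genes was above its level in remaining tissue. Both libraries of remaining tissue list Gm36028 at 0, and it stood at 986 and 2064 normalized counts in isolated mitochondria replicates 1 and 2, which are 109 and 408 reads. Rbfox3 was likewise listed at 0 and 0, and at 471 and 648 in isolated mitochondria, or 52 and 128 reads. Syt16 had 0 and 1 normalized counts in remaining tissue and 335 and 445 in isolated mitochondria, or 37 and 88 reads. The groups do not overlap for these 3 genes, and replicate 2 of isolated mitochondria was the higher library for each.

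Cntn1 had 1 normalized count in either library of remaining tissue, or 4 to 10 reads by the rounding, and 805 and 288 in isolated mitochondria, or 89 and 57 reads. Gm38973 was listed at 0 and 0 in remaining tissue and at 1023 and 258 in isolated mitochondria, or 113 and 51 reads. Replicate 1 was the higher library for both of these genes. Of the 6916 genes with a mean of at least 20 normalized counts over the 4 libraries, 25.5% lay higher in both libraries of isolated mitochondria than in either of remaining tissue. All 5 genes passed that minimum, through isolated mitochondria alone, and nothing is read from their place among the 25.5%, since they were chosen by it.

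**Figure D1:**
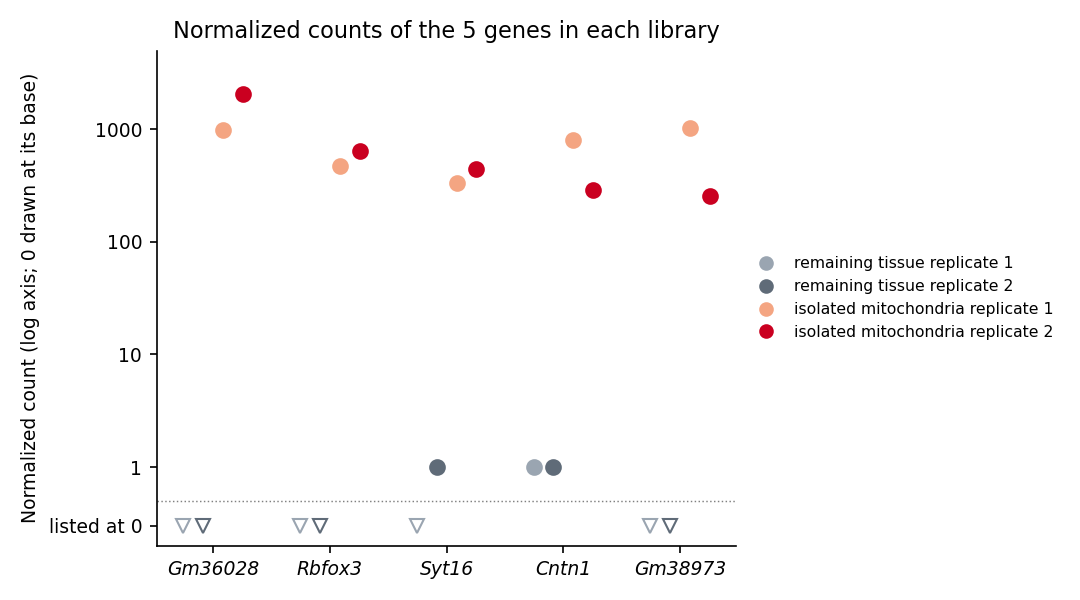
Normalized counts (log axis) of the 5 genes in each of the 4 libraries, one point per library, with open triangles for values listed at 0 and the dotted line at 0.5, below which values round to 0. Isolated mitochondria lie between 258 and 2064 and remaining tissue at 0 or 1.

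The size of the difference depended strongly on the scale. Between group means of normalized counts, with values listed at 0 taken as 0.5, Gm36028 was at least 3050-fold higher in isolated mitochondria, Rbfox3 at least 1119-fold and Gm38973 at least 1281-fold. For Syt16 the ratio of means was 780 (390 to 1560 by the rounding of remaining tissue), and for Cntn1 it was 546.5 (364 to 1093). As a share of all assigned reads, most of which were mitochondrial in the isolated fraction, the same genes were at least 36.4-fold (Gm36028), 12.5-fold (Rbfox3), 10.6-fold (Gm38973), 3.98-fold (Syt16) and 2.86-fold (Cntn1) higher. The group means of all 5 were higher in isolated mitochondria on either scale. Between the lower library of isolated mitochondria and the higher one of remaining tissue, with its value at the upper edge of the rounding, the share of all assigned reads was still 13.0-fold higher for Gm36028, 7.37-fold for Gm38973, 6.20-fold for Rbfox3, 2.47-fold for Cntn1 and 1.32-fold for Syt16. For Syt16 the 95% Wilson intervals of these 2 libraries overlapped, on recovered and on estimated reads. They were 0.628 to 1.19 per 1000000 assigned reads in isolated mitochondria replicate 1 and 0.222 to 0.944 in remaining tissue replicate 2. Without replicate 2 of isolated mitochondria Gm38973 would be at least 2046-fold higher, and without replicate 1 at least 516-fold. For Cntn1 these values were 537 and 192, and for Gm36028 they were 1972 and 4128.

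**Figure D2:**
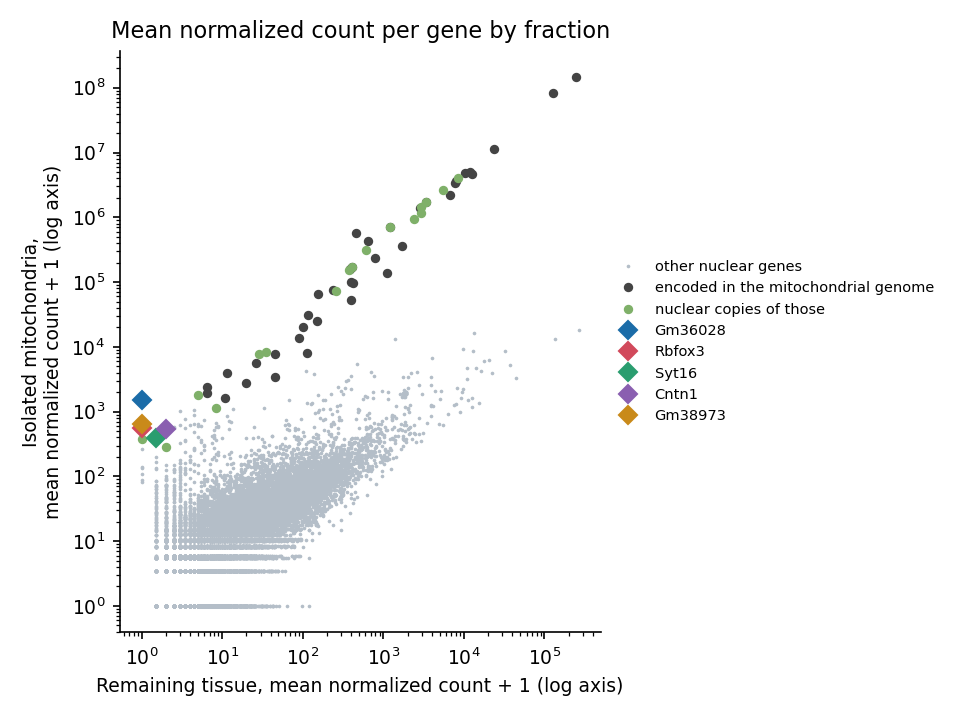
Mean normalized count + 1 of each gene in remaining tissue (horizontal, log axis) and in isolated mitochondria (vertical, log axis), with the 5 genes as diamonds, 37 genes encoded in the mitochondrial genome in black and 17 nuclear copies of them in green. The 5 genes stand at the left edge, at means of 390 to 1525 normalized counts in isolated mitochondria.

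Together the 5 genes held 400 reads in replicate 1 and 732 in replicate 2 of isolated mitochondria. This was 0.396% (95% Wilson interval 0.359 to 0.437%) and 0.404% (0.376 to 0.434%) of nuclear reads, so on this base their summed shares differed by less than counting error. Per 1000000 assigned reads the sum was 9.36 and 20.7, so the likeness of the replicates depends on the base. In remaining tissue the sum was an estimated 7 and 14 reads, at most 22 and 29 by the rounding, or at most 0.000242% of nuclear reads in replicate 2. Intervals cover counting error only, since several reads may stem from one molecule.

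The composition of that sum differed between the replicates. As a share of nuclear reads, Gm36028 had 1080 ppm (reads per 1000000 nuclear reads) in replicate 1 (95% Wilson interval 895 to 1303) and 2252 (2044 to 2481) in replicate 2, a ratio of replicate 2 over 1 of 2.09 (adjusted p = 1.24e-12, two-sided Fisher's exact test on reads, adjusted over the 5 genes). Rbfox3 had 515 (393 to 676) and 707 (594 to 840) ppm, a ratio of 1.37 that did not pass the threshold of 0.05 (adjusted p = 0.0770, same exact test). Syt16 had 367 (266 to 505) and 486 (394 to 598) ppm, a ratio of 1.33 (adjusted p = 0.162, same exact test). These 3 genes thus had ratios above 1, of which that of Gm36028 exceeded counting error.

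Cntn1 differed in the other direction, with 882 ppm (717 to 1085) in replicate 1 and 315 (243 to 408) in replicate 2, a ratio of 0.357 (adjusted p = 1.14e-09, same exact test). Gm38973 was also lower in replicate 2, with 1120 (931 to 1346) and 282 (214 to 370) ppm, a ratio of 0.251 (adjusted p = 4.5e-17, same exact test). The tests compare these 2 libraries and not conditions. The direction in both groups of genes is relative to nuclear reads. With all assigned reads as the base, Cntn1 no longer passed (ratio 0.776, adjusted p = 0.135, exact test), while Rbfox3 and Syt16 did, with ratios of 2.98 and 2.88. The ratios of Gm36028 and Gm38973 were 4.53 and 0.547 on that base.

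Such differences between the replicates were common among nuclear genes. Over 337 other nuclear genes with at least 100 reads in both libraries together, the ratio had a median of 1.05, quartiles of 0.753 and 1.45, and a range from 0.168 to 2.15 between the 5th and the 95th percentile. All 5 genes lay within that range, Gm36028 above 93.2% of these genes, Cntn1 above 13.1% and Gm38973 above 8.90%. A ratio under 0.5, like those of Cntn1 and Gm38973, was found in 49 of the 337 genes.

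**Figure D3:**
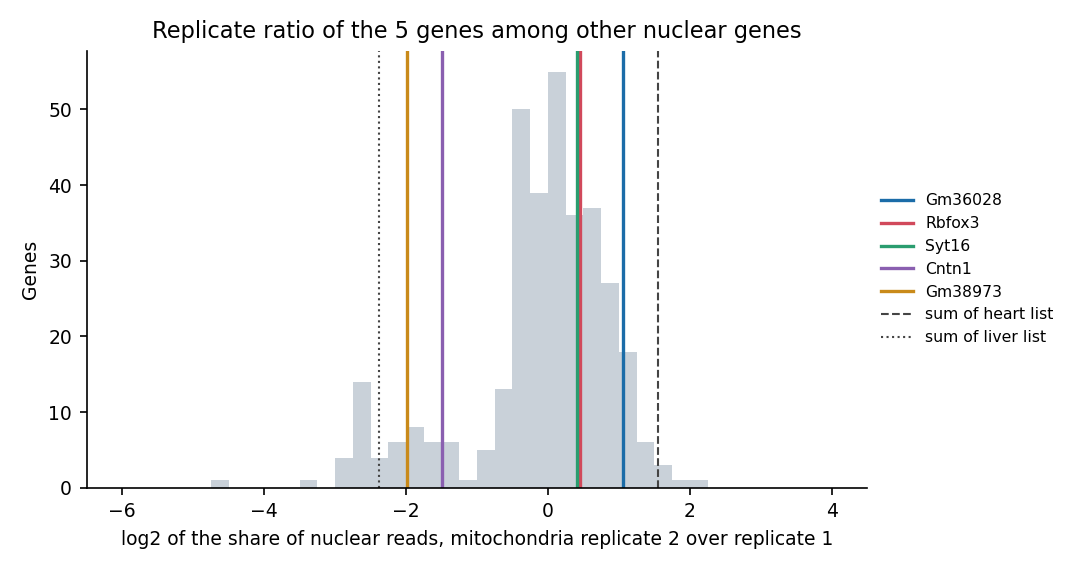
Histogram of the log2 ratio of the share of nuclear reads in isolated mitochondria replicate 2 over replicate 1, for nuclear genes with at least 100 reads in both libraries together. The bars include the 5 genes beside the 337 others. Solid lines mark the 5 genes, dashed and dotted lines the summed heart and liver lists. Gm36028, Rbfox3 and Syt16 lie to the right of 0, and Cntn1 and Gm38973 lie to the left, below 0.5 on the linear scale.

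Summed values of genes known from liver and from heart also differed between the same libraries. A list of 17 liver genes, chosen after the values were seen, summed to 354 and 90 normalized counts in remaining tissue and to 16504 and 3193 in isolated mitochondria, all 17 above 0 in both, which is a ratio of 0.193 between the replicates. Within that list Hal went the other way, with 54 and 116 normalized counts in isolated mitochondria replicates 1 and 2. A heart list of 14 genes, 7 of them in the table, summed to 219 and 352 in remaining tissue and to 715 and 2110 in isolated mitochondria, a ratio of 2.94. Most of this sum was the cardiac myosin gene Myh6 (196 and 334 against 525 and 1543). Only 5 of the 7 were above 0 in isolated mitochondria, as Myl4 (9 and 6) and Hcn4 (5 and 4) were listed at 0 there, and Nppa, Nppb, Tnni3 and Myl7 had no row. The 5 heart genes above 0 were each higher in both libraries of isolated mitochondria than in either of remaining tissue, beside 25.5% of genes tested. Ryr2, for instance, had 1 and 1 against 36 and 162. None of 6 kidney genes was in the table. Whether the 5 genes came with RNA of other organs was not tested.

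Read counts per kb of exon allowed levels to be compared between genes. Gm38973 had 129 and 58.1 reads per kb in isolated mitochondria replicates 1 and 2 and Gm36028 had 79.7 and 298, so that their ranges overlapped. Far lower lay Cntn1 (9.43 and 6.04), Rbfox3 (8.94 and 22.0) and Syt16 (4.05 and 9.62), whose ranges overlapped each other but not those of the first pair. Among 16403 nuclear genes Gm36028 ranked 149th and 82nd by reads per kb and Gm38973 117th and 195th. The ranks were 653 and 464 for Rbfox3, 606 and 1546 for Cntn1, and 1269 and 995 for Syt16. In remaining tissue all 5 were below at least 97.8% of nuclear genes.

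The 5 genes differ in locus and in structure. All coordinates are on GRCm38, and the annotation used (GENCODE M21) gives each gene the same limits as the deposited table. Gm36028 (ENSMUSG00000108763) lies at chr16:37850913-37861146 on the - strand, with 2 transcripts, 6 exon blocks and 1367 bp of exon, 897 bp of them coding. A 5S ribosomal RNA gene, n-R5s34, lies on the opposite strand inside an intron of Gm36028 and overlaps its exons by 0 bp. RefSeq extends Gm36028 to 37865237, and the closest gene in the table, Lrrc58, starts 7242 bp away on the other strand.

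Rbfox3 (ENSMUSG00000025576) spans 421836 bp at chr11:118489762-118911597 on the - strand, of which 1.38% or 5818 bp is exon, in 21 blocks from 10 transcripts. Its introns hold the lincRNA gene Gm11750, the miRNA gene Gm25040 and the sense-intronic gene Gm11749, none of them in the table and none overlapping its exons. Engase, on the opposite strand, ends 552 bp from the 3′ end of Rbfox3. It had 8 and 6 normalized counts in remaining tissue and 9 and 15 in isolated mitochondria, which are 1 and 3 reads.

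Syt16 (ENSMUSG00000044912) spans 275607 bp at chr12:73997661-74273267 on the + strand, with 9144 bp of exon in 10 blocks. It is the one gene of the 5 with an exon shared with another gene, Gm29587, an antisense gene that overlaps its exons by 183 bp and is not in the table. The kit kept the strand of the RNA, but the strand setting of the counting was not stated, so reads of Gm29587 in that overlap may have been counted for Syt16 or excluded.

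Cntn1 (ENSMUSG00000055022) spans 290803 bp at chr15:92051165-92341967 on the + strand, with 9433 bp of exon in 26 blocks, 3060 bp of them coding, and no annotated gene inside it. Gm38973 (ENSMUSG00000108592) is the shortest, 1634 bp at chr7:27649426-27651059 on the - strand, with 1 transcript of 878 nt in 2 exons. Ttc9b starts 2855 bp from it on the opposite strand and is not in the table, and RefSeq extends Gm38973 to 27654232, into that gene. GC content of the transcripts ran from 44.3% in Cntn1 and 46.8% in Syt16 to 58.6% in Rbfox3, around a median of 49.8% over 16403 nuclear genes, and the 5 genes shared no extreme.

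**Figure D4:**
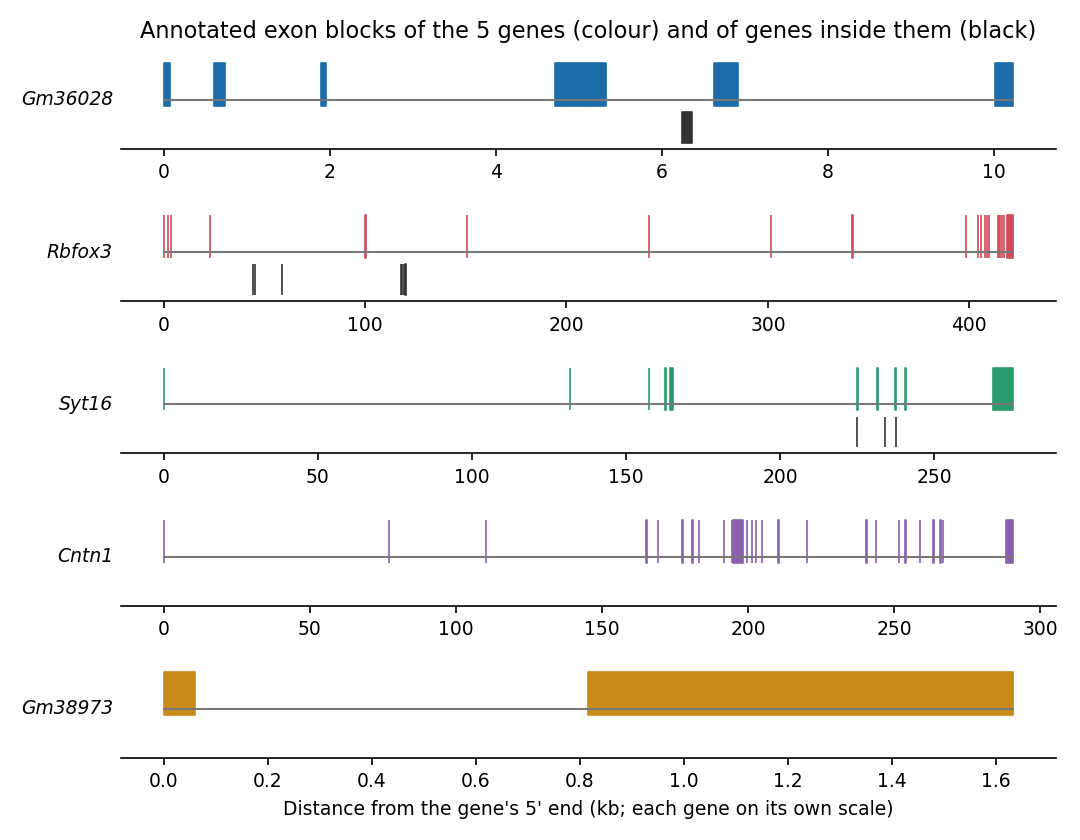
Annotated exon blocks of the 5 genes along the distance from each gene's 5′ end in kb, each on its own scale, with exons of other annotated genes inside them in black below the line. Exons make up 1.38% of Rbfox3, 3.32% of Syt16, 3.24% of Cntn1, 13.4% of Gm36028 and 53.7% of Gm38973.

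To see whether the surrounding region behaved alike, the 3 nearest genes of the table on either side of each gene were examined, 30 genes in all. They lay 552 to 1232532 bp away, so many are not close by. The one neighbour with at most 1 normalized count in both libraries of remaining tissue, Zfp607b near Gm38973, had 0 reads in isolated mitochondria. By limma on log2(normalized count + 1), with adjustment over all 6916 genes tested, 3 of the 13 neighbours tested rose and 1 fell, beside 7.32% and 9.30% of all genes tested. Their median log2 difference was -0.21, beside -0.44 over all genes.

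Fstl1, a secreted glycoprotein gene 14398 bp from Gm36028, had 87 and 87 normalized counts in remaining tissue and 244 and 395 in isolated mitochondria (log2 difference 1.82, SE 0.31, limma adjusted p = 0.0335). C1qtnf1, 39798 bp from Rbfox3, had 14 and 14 against 54 and 71 (log2 difference 2.07, SE 0.35, limma adjusted p = 0.0340). Rhoj, a small GTPase gene 1035054 bp from Syt16, had 27 and 26 against 136 and 147 (log2 difference 2.37, SE 0.24, limma adjusted p = 0.0149). Ndufb4, a complex I subunit gene 196459 bp from Gm36028, had 135 and 130 against 54 and 61 (log2 difference -1.19, SE 0.23, limma adjusted p = 0.0422). Without either library of remaining tissue 0 of the 4 calls remained in each direction, and without either library of isolated mitochondria 5 neighbours were called in each direction. The direction depends on the scale, as all 13 were lower when libraries were scaled to their total. Over all genes the deposited scale called 506 higher and 643 lower, the scale of all reads 38 and 6694, and the scale of nuclear reads 1107 and 183, with median log2 differences of -0.44, -6.90 and 0.43.

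Because Rbfox3 and Cntn1 are known from the nervous system, markers of its cells were measured in the same libraries. Of 49 such markers 18 had a row in the table, and together they held 57 and 104 reads in isolated mitochondria. Of 26 neuron markers 6 had a row. Snap25, Syt1, Tubb3, Nefl, Elavl3 and Elavl4 had none, and nor did any of the 6 oligodendrocyte markers. The neuron list summed to 595 and 618 normalized counts in remaining tissue and to 136 and 333 in isolated mitochondria. Most of this was Camk2a, which muscle also transcribes, with 575 and 595 against 109 and 207.

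Camk2a was the one marker of the 6 tested that passed, and it fell (log2 difference -1.95, SE 0.36, limma adjusted p = 0.0402), beside 9.30% of all genes called lower and 7.32% called higher. The call was lost at a minimum mean of 5, without a minimum and on the scale of nuclear reads (limma or edgeR adjusted p up to 0.120 over 11 alternatives). Upward 0 passed on the deposited scale by limma, also at an unadjusted p under 0.05. In other fits up to 2 markers passed upward, 1 with a replicate block, 1 on the scale of nuclear reads, 1 and 2 without isolated mitochondria replicate 1 and 2, and 2 by edgeR on reads. The astrocyte list summed to 84 and 81 normalized counts in remaining tissue and to 298 and 90 in isolated mitochondria, of which the folate enzyme gene Aldh1l1, also active in liver, made 253 and 40 in isolated mitochondria. The neuron marker Thy1 had 8 and 11 against 9 and 81. The Schwann cell list summed to 103 and 79 against 81 and 100. The part of RNA of nervous tissue in the values of the 5 genes was not tested. In bulk samples fewer cells of a type and less RNA per cell cannot be told apart. All 10 markers of skeletal muscle fibres were present, at 71103 and 63052 ppm of nuclear reads in isolated mitochondria. In remaining tissue they held 309403 and 298369 ppm on estimated reads. By limma 9 of the 10 fell, beside 9.30% of all genes tested.

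Relatives of Rbfox3, Syt16 and Cntn1 had few reads in isolated mitochondria. Rbfox1, the splicing regulator of the same family that muscle and neurons use, had 318 and 306 normalized counts in remaining tissue and 36 and 66 in isolated mitochondria, and fell (log2 difference -2.65, SE 0.36, limma adjusted p = 0.0231), which held in all 11 alternatives. Rbfox2, the widely expressed member, had 113 and 104 against 63 and 61 (log2 difference -0.80, SE 0.22, limma adjusted p = 0.0869). Of 21 other synaptotagmins and related genes 9 had a row, with sums of 39 and 40 against 63 and 40 normalized counts, or 7 and 8 reads in isolated mitochondria. The one of them at no more than 1 normalized count in both libraries of remaining tissue, Syt6, had 2 and 1 reads. Of 12 contactins and associated proteins only Cntnap1 and Cntnap2 had a row, with 5 and 2 reads in isolated mitochondria. Of the relatives 2 were tested and 1 fell, none rose, beside 7.32% higher and 9.30% lower over all genes.

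A further list held genes known in mouse for reads of ribosomal RNA or its copies, together with the genes of the abundant 7SK and 7SL RNAs. Of its 12 genes 8 had a row. The 7SK gene Rn7sk had 4009 and 3856 normalized counts in remaining tissue and 3221 and 1988 in isolated mitochondria, and the 7SL gene Rn7s1 had 2370 and 2813 against 4407 and 3906. Among the others Lars2 had 189 and 225 against 480 and 521, and Filip1l 210 and 211 against 127 and 192. Of the 7 genes tested, Lars2 rose (log2 difference 1.27, SE 0.20, limma adjusted p = 0.0286) and none fell, beside 7.32% and 9.30% of all genes. At an unadjusted p under 0.05 there were 4 of these 7 genes and 2557 of all 6916. The call of Lars2 held in 8 of 11 alternatives (limma or edgeR adjusted p up to 0.303). It was lost without either library of remaining tissue, and on the scale of all reads Lars2 was lower, with a log2 difference of -5.59.

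The genes most like the 5 were those with at most 1 normalized count in both libraries of remaining tissue, ordered by the geometric mean over both libraries of isolated mitochondria. Of the 1215 genes under that limit, 739 had no read in either library of isolated mitochondria and 155 had reads in both. The 5 genes led the order, down to Syt16 with a geometric mean of 386. Just outside were the mitochondrial copies Gm11408 (0 and 0 against 461 and 293, geometric mean 368) and Gm50174 (270), and then a gap to Nell2 (131), a secreted protein gene of neurons. Next came Mup-ps17, a pseudogene of the liver-made major urinary proteins (117), Gm11834 (117), the apolipoprotein gene Apoa4 (115), Ppfia3 (80.5), Gm9954 (79.8), the histidine-degrading enzyme gene Hal (79.1) and the cardiac ryanodine receptor gene Ryr2 (76.4). Their ratios between replicates ran from 0.315 in Gm11834 to 4.46 in Ryr2, on 23 and 13 and on 4 and 32 reads.

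With a limit of 5 normalized counts in place of 1, 5382 genes qualified, 13 others stood above Syt16, and 2 of the 5 genes (Gm36028 and Rbfox3) were among the first 5. Gm11512 (3 and 5 against 2479 and 1128), Dact3 (3 and 4 against 1602 and 496) and Mup9 (5 and 2 against 1475 and 268) were the others. Most of the 13 were, like Mup9, genes of the major urinary proteins, each higher in replicate 1 of isolated mitochondria than in replicate 2. The place of the 5 genes at the head of the order thus rests on the limit of 1.

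Functional annotation was taken from the table. None of the 5 genes carried the Gene Ontology term mitochondrion, which 13.1% of the 10520 annotated genes carry. Rbfox3 carried neuron part, RNA binding and nucleus, Cntn1 nervous system development and membrane, and Syt16 membrane. Gm36028 and Gm38973 carried no term.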

How the data were processed

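Per the labels and the study's methods, mitochondria were isolated from wild-type muscle by centrifugation, libraries were made with a stranded kit, with fragmentation adjusted for mitochondrial RNA, and reads were aligned to GRCm38. The submitters' processing notes name Trimmomatic 0.39, STAR 2.7.10a, featureCounts 2.0.2 and DESeq2 1.30.1. Reads on several genes or places were excluded, and the strand setting and the rule for keeping genes were not stated. What the authors deposited is a signal, namely gene counts divided by size factors and rounded to whole numbers. The study's methods, written for heart, also digest the tissue with trypsin and treat isolated mitochondria with digitonin and RNase A before RNA isolation. Whether muscle was handled in the same way was not stated. Fragmentation, any such treatment of the mitochondria and group cannot be told apart.

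The 5 genes and all lists were chosen with earlier results of these data known. Low values (under 2000) of isolated mitochondria were whole multiples of 1 step within 0.51 normalized counts in 100% of 10508 and of 11660 values. Reads of remaining tissue were estimated from the median-of-ratios scaling over 8993 genes. Genes with a mean of at least 20 were tested with limma 3.58.1 in R 4.3.3 (log2(value + 1), eBayes with trend, two-sided, Benjamini-Hochberg, threshold 0.05) and, as an alternative, with edgeR 4.0.16 on reads; both were tested on simulated data. Shares used Wilson intervals and Fisher's exact test. Sequences were from GENCODE M21 transcripts, compared with BLAST+ 2.17.0 (word size 11, E-value up to 0.001). A nuclear copy of a mitochondrial gene had at least 50% of its transcript matched at 85% identity. Named genes were the 5, the 10 most like them, their 3 nearest neighbours per side, and of each list those that passed or, if none did, the 2 with the largest mean. The liver, heart, kidney and brown fat lists were added after seeing values; 2 of 3 brown fat genes were in the table, with 0 and 2 reads in isolated mitochondria. Of 6 hair and epidermis and 6 blood genes, 2 and 6 were in the table, with 2 and 1 and with 37 and 79 reads. One shared sequence and one marker gene are not reported here.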

Additional observations from a re-analysis of the deposited data

How the results depend on the processing

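Each of the 5 genes was higher in isolated mitochondria under all 7 alternatives of its log2 difference, the lowest being 1.92 (Cntn1, scaled to all genes). This direction is no test, since the genes were chosen by it. The counts of called genes moved more. Over all genes, neighbours and nervous markers, a mean of at least 5 gave 283 higher and 399 lower genes, 1 higher and 0 lower neighbours and 0 lower markers. No filter gave 3026 lower genes, 5 lower neighbours and 4 lower relatives. Scaling to all genes gave 38 higher and 6694 lower genes, 0 and 13 neighbours, 6 lower markers and 2 lower relatives. Scaling to nuclear genes gave 1107 higher and 183 lower genes, 0 lower neighbours and 1 higher and 0 lower markers. edgeR on reads gave 1129 higher genes, 2 lower neighbours and 2 higher markers. A replicate block gave 630 higher and 1144 lower genes, 2 lower neighbours and 1 higher marker; the labels state no pairing, and deviations of libraries with the same number correlated at 0.14 over 6916 genes. Leaving out 1 library gave 296 to 1724 higher and 176 to 3198 lower genes, 0 to 5 neighbours in each direction, 0 to 2 higher and 1 to 2 lower markers, and 1 to 2 lower relatives. The cause was not tested.

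With all assigned reads as the base, the ratios between replicates were 2.98 for Rbfox3, 2.88 for Syt16, 0.776 for Cntn1, 4.53 for Gm36028 and 0.547 for Gm38973, and with all genes not encoded in mitochondria those of Rbfox3 and Syt16 were 2.39 and 2.31. The ratios of all 5 genes kept their side of 1. With word size 7 and an E-value up to 10, the longest match to a mitochondrial transcript was 37 nt, at 75.7 and 78.4% identity. Depth limits these results to 37 to 408 reads per gene in isolated mitochondria, and rounding hides up to 3 reads in remaining tissue.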
